A study of Caenorhabditis elegans with 2 samples.

Results

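The genes described are the 31 nuclear protein-coding genes of Caenorhabditis elegans that encode the proteins of the small ribosomal subunit. They were taken by name, as the genes of the WBcel235 annotation with the symbol rps and a number, out of 19973 nuclear protein-coding genes. Earlier results of these data were known when the set was chosen. The data are chromatin immunoprecipitation sequencing (ChIP-seq) peak lists for XBP-1, a basic leucine zipper transcription factor of the unfolded protein response, in 2 biological replicates that form 1 group. The animals were whole hermaphrodite L1 larvae of strain OP506, collected 6 h after synchronization by bleaching and starvation. OP506 carries unc-119(tm4063) on chromosome III and wgIs506, an integrated transgene that makes XBP-1 tagged with GFP and FLAG at its C-terminus. The immunoprecipitation used an antibody against GFP according to the sample descriptions, while 1 label field names xbp-1 as the antibody. The control experiment named in the labels was not analysed here, so no value below is set against a background measured without the tagged protein. Whole larvae were used, so a peak cannot be placed in a tissue.

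The small ribosomal subunit binds messenger RNA, holds the codon against transfer RNA in the decoding centre and scans for the start codon during initiation. Its proteins are needed in equal numbers, and their genes are among the most strongly transcribed in growing cells. XBP-1 is best known for its action on genes of the endoplasmic reticulum, to which ribosomes that make secreted proteins are bound. A consensus bound by XBP-1 in mammals, the unfolded protein response element, contains the word TGACGTG.

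Each deposited region has a summit, the point of strongest enrichment, and a signal value on a scale that is not stated in the sources used here. The signal served only to rank regions within 1 list, rank 1 being the strongest. Of the lists, the thresholded one holds 3641 peaks that the authors kept by a measure of reproducibility, with signal values of 73.3 to 34888. Relaxed lists, which mix peaks with background, hold 30000 regions in replicate 1, 28535 in replicate 2 and 26088 after pooling. The 3641 thresholded peaks were the 3641 strongest pooled regions, so a peak in that list need not be strong in each replicate alone. On this scale the strongest peak of all lay at hsp-3, a chaperone gene of the endoplasmic reticulum, while xbp-1 itself had no peak. Each gene has a promoter window, which reaches 1000 bp upstream and 200 bp downstream of every annotated start, and summits inside it were counted for that gene.

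The DNA under the rps summits is shown first, because some of the windows share words. The words were picked from these same windows, some windows hold more than 1 of them, and 11 of the 29 hold none. Each line is the summit of the thresholded peak with 50 bp on either side, read 5′ to 3′ on the strand of the rps gene, from the RefSeq sequence of WBcel235 (the assembly also called ce11). Capitals mark 4 words on either strand, which are GGGTCTCGC, CAGCCAA, a word of 14 letters and a word of 17 letters. No printed window overlaps an annotated untranslated region. The words were chosen after the windows had been read, so their presence is a description. The first 2 windows hold none of the 4 words. They are rps-1 chrIII:4475615-4475715 on the plus strand and rps-12 chrIII:5679080-5679180 on the plus strand.
rps-1: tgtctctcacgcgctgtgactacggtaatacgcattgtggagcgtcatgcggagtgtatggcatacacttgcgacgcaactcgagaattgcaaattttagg
rps-12: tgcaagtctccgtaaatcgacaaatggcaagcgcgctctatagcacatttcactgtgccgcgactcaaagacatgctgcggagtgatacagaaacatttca
Both windows are shown because they lie at ranks 42 and 48 without any of the 4 words or the TGACGTG word.

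The next 4 windows share the 14-letter word, the last run of capitals in each, in every case on the strand of the rps gene and downstream of the summit. They are rps-0 chrIII:4754313-4754413 on the minus strand, rps-22 chrIII:1950369-1950469 on the plus strand, rps-30 chrV:7776277-7776377 on the plus strand and rps-3 chrIII:6206415-6206515 on the plus strand.
rps-0: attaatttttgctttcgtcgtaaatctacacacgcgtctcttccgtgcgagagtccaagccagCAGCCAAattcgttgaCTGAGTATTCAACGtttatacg
rps-22: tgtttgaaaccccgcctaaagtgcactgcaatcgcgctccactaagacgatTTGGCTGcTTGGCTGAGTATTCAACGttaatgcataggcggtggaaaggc
rps-30: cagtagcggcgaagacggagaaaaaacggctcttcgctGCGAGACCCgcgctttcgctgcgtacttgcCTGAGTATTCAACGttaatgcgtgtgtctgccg
rps-3: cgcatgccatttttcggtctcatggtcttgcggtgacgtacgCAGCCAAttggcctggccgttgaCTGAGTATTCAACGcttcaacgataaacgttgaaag
In rps-22 the last letters of the second TTGGCTG, the reverse complement of CAGCCAA, are also the first letters of the 14-letter word.

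A further pair shares the 17-letter word, written as its reverse complement in rps-13. They are rps-23 chrIV:12391284-12391384 on the minus strand and rps-13 chrIII:6375139-6375239 on the minus strand.
rps-23: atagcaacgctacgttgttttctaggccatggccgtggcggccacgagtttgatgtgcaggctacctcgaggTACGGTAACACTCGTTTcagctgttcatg
rps-13: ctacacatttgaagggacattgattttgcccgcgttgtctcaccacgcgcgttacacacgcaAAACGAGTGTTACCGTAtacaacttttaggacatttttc
The summit window of rps-10, not printed, holds the same 17 letters.

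GGGTCTCGC was in 7 rps windows, at ranks 643 to 2484. The 4 windows printed are rps-29 chrIII:793753-793853 on the plus strand, rps-11 chrIV:11602281-11602381 on the plus strand, rps-25 chrIV:5947888-5947988 on the minus strand and rps-8 chrIV:7314090-7314190 on the minus strand.
rps-29: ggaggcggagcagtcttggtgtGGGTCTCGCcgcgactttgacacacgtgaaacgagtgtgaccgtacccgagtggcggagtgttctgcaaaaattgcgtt
rps-11: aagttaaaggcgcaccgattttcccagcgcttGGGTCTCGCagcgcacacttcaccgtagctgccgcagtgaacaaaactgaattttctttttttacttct
rps-25: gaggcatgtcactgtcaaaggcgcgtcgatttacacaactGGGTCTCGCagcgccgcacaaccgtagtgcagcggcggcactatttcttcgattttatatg
rps-8: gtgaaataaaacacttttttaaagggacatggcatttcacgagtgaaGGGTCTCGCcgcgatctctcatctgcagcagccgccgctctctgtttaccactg
The rps-29 window also holds the only CACGTG among the rps summits.

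A thresholded peak lay in the promoter window of 29 of the 31 rps genes (93.5%, 95% Wilson interval 79.3 to 98.2%), against 15.5% of all protein-coding genes (3092 of 19973). The 29 peaks were distinct, with 1 for each gene. Intervals on shares cover counting error over genes only. Among genes of the large subunit, named rpl and a number, 41 of 47 had one (87.2%, 74.8 to 94.0%), so the intervals of the subunits overlap. Among genes of the mitochondrial small subunit, named mrps and a number, 14 of 29 had one (48.3%, 31.4 to 65.6%), and that interval lies below the one for rps genes. In the relaxed lists a region lay in the window of 30 of 31 rps genes each time, against 40.9% of all genes for the pooled list, 43.3% for replicate 1 and 43.5% for replicate 2. When each summit was given only to the gene with the nearest start, 15 of 31 rps genes kept a peak (48.4%), against 11.3% of all genes. The 14 genes that lost their peak by that rule were those with a summit nearer the start of a divergent neighbour. At rps-13, rps-30 and rps-15 among them both starts were almost equally near, as given below.

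**Figure D1:**
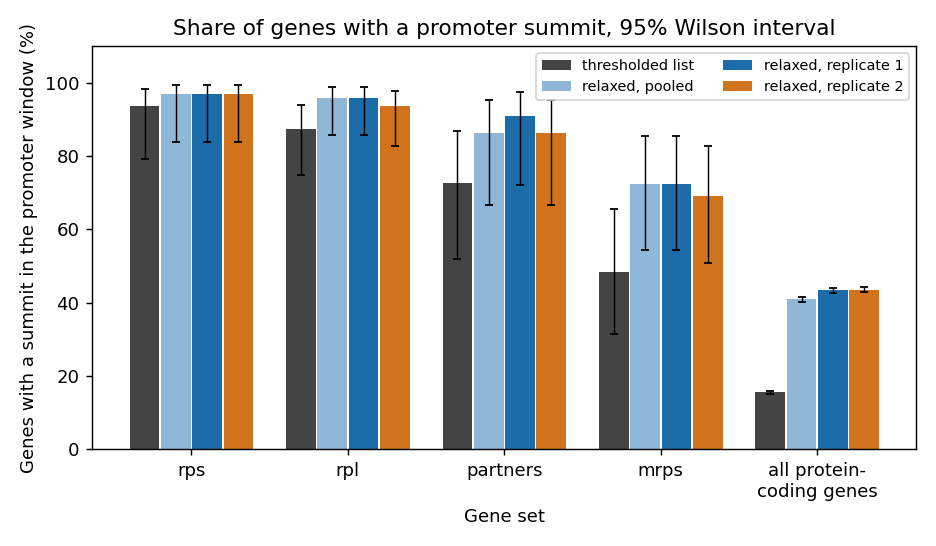
Share of genes with a summit in the promoter window, in percent, for small subunit (rps), large subunit (rpl), small subunit partner, mitochondrial small subunit (mrps) and all protein-coding genes, in the thresholded list and the 3 relaxed lists. Bars start at 0 and whiskers are 95% Wilson intervals over genes. In the thresholded list the rps bar stands at 93.5% and the bar for all genes at 15.5%.

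The rps peaks also stood high within the thresholded list. Their median rank was 402 (quartiles 221 and 1066, from 41 to 3111), against 1448.5 for all genes with a peak (quartiles 658.5 and 2405.25). The large subunit genes had a median rank of 615, and the mitochondrial small subunit genes 1778. Of the 31 rps genes, 6 had a peak among the 100 strongest, against 0.591% of all genes. For the 500 strongest the count was 16 of 31, against 2.94% of all genes. For the 1000 strongest it was 20 of 31, against 5.65% of all genes. For the 1820 strongest it was 26 of 31, against 9.28% of all genes.

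**Figure D2:**
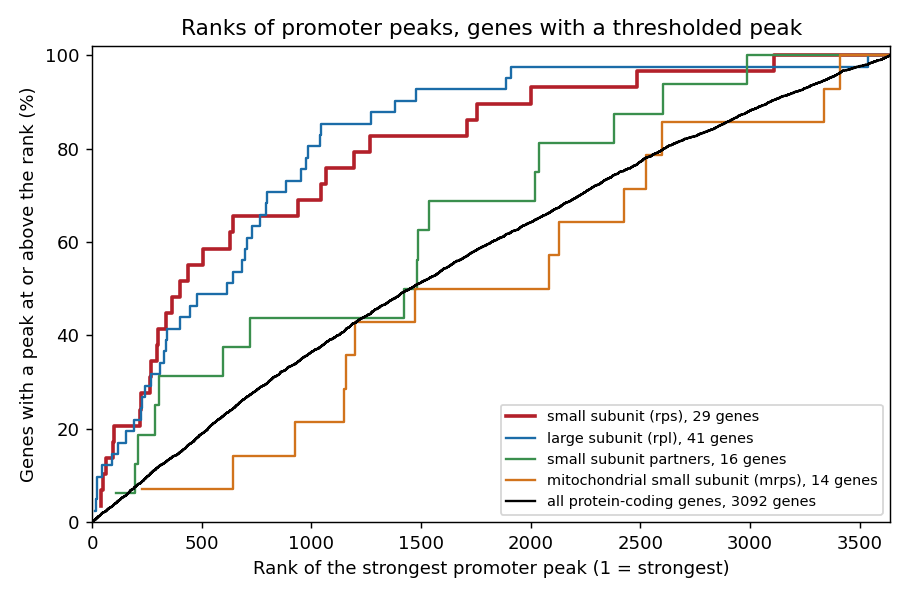
Cumulative share of genes, in percent of those with a thresholded peak, against the rank of their strongest promoter peak (1 is the strongest). Lines stand for the gene sets, and the rps line crosses the middle at rank 402, that for all protein-coding genes at rank 1448.5.

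Ordered by the part of the subunit in which the protein sits, all 7 genes for proteins of the platform and the messenger RNA exit had a peak, at ranks 42 to 436 with a median of 262. Genes were put into these sets by hand, from positions known from yeast and human ribosomes. Another assignment could change the counts and ranks given for each set. Signal values are those of replicate 1 and then replicate 2. The strongest was rps-1, whose protein lines the exit, with signal values of 606 and 587. It was followed by rps-28, a small protein at the exit, with 392 and 422. These are 2 of the 6 rps genes among the 100 strongest peaks. rps-14, which sits on the platform beside the exit, had 300.3 and 267, and rps-0, a protein at the back of the subunit, had 293 and 262. rps-26, which touches messenger RNA upstream of the start codon, had 268 and 227. rps-5, at the exit side of the head, had 213 in each replicate, and rps-21, a neighbour of the rps-0 protein, had 192 and 203. No gene of this set fell outside the 500 strongest peaks.

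Among the 5 genes for proteins at the decoding centre and the transfer RNA sites, 4 had a peak. rps-15, whose protein reaches toward the decoding centre, had signal values of 475 and 453 at rank 65. rps-23, which sets the accuracy of decoding, had 299.9 and 276 at rank 219. rps-18, a head protein at the contact with the large subunit, had 270.4 and 253 at rank 270. rps-25, a protein near the exit site of transfer RNA, stood apart with 65.1 and 67.7 at rank 2000. The fifth, rps-16, whose tail touches the transfer RNA in the peptidyl site, had no region in its window in any list.

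The 6 genes for proteins around the messenger RNA entry all had a peak, and this set spread over the widest range of ranks, 95 to 3111. rps-20, a head protein near the entry, had signal values of 449.7 and 396. rps-10, another head protein at the entry, had 259 and 202, and rps-30, made as a fusion to a ubiquitin-like protein, had 144 and 182. rps-3, which forms part of the entry channel, had 145 and 109. The remaining entry genes were far weaker. rps-9, also of the entry channel, had 68.5 and 79.2 at rank 1755, while rps-2, its neighbour in the channel, had 33.5 and 59.6 at rank 3111, the weakest peak of any rps gene.

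Genes of the head outside these sites numbered 4, all with a peak, at ranks 41 to 1045. rps-19, whose human counterpart is mutated in Diamond-Blackfan anaemia, had signal values of 642 and 549.6 and the strongest peak of all rps genes. rps-12 followed with 595 and 518 at rank 48. rps-17, another gene of the human anaemia set, had 167 and 154 at rank 628, and rps-29, which encodes a zinc-binding protein, had 112 and 120.5 at rank 1045.

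The 9 genes for proteins of the body were the weakest as a set, with 8 peaks at ranks 295 to 2484 and a median of 1130. rps-4 led with signal values of 247 and 246 at rank 295, ahead of rps-24 with 231 and 207 at rank 362. rps-22 had 173 and 189, rps-13 had 132 and 93.6, and rps-11 had 114 and 104. rps-6, the classical substrate of the S6 kinase in mammals, had 83.9 and 113 at rank 1269. rps-7 had 78.1 and 76.2, and rps-8 had 63.1 and 44.8. The role sets overlap in rank, since the strongest body gene outranks 3 of the 7 exit genes, and no test was run between them.

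**Figure D3:**
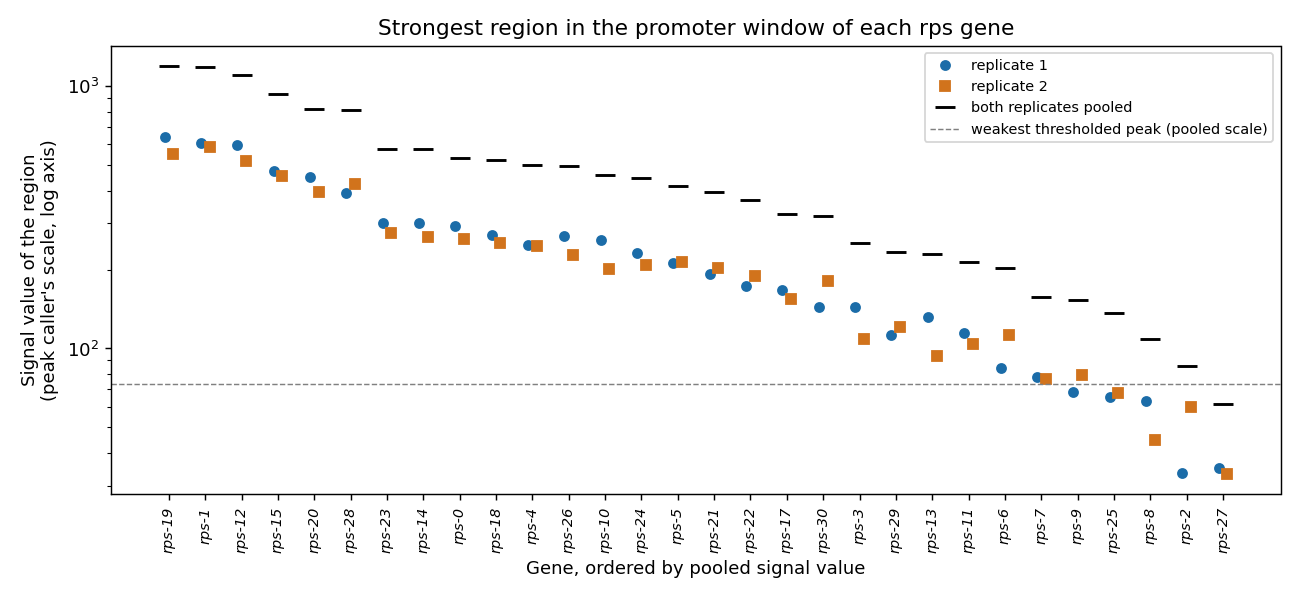
Signal value of the strongest region in the promoter window of each rps gene (log axis, the peak caller's scale), for replicate 1 (circles), replicate 2 (squares) and the pooled replicates (bars), ordered by the pooled value. The dashed line is the weakest thresholded peak, at 73.3 on the pooled scale. Replicates lie farthest apart at rps-2, with 33.5 and 59.6.

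The replicates gave nearly the same order. Over the 30 rps genes with a region in each replicate, Spearman's rho between the replicate signals was 0.982, as a description over genes that share the libraries. The ratio of replicate 1 to replicate 2 had a median of 1.06 and ran from 0.563 at rps-2 to 1.41 at rps-8. The median over all genes with a peak was also 1.06 (3084 genes). In replicate 1 rps-2 ranked 4091, below the 3641 strongest regions of that list, and in replicate 2 it ranked 2249. Summits of the replicates lay a median of 3 bp apart at the 29 rps peaks, against 12 bp at all genes with a peak. They lay within 10 bp of each other at 21 of 29 rps genes, against 46.4% of all genes with a peak (1430 of 3084). At the weakest rps peaks the shift was 41 bp at rps-7, 22 bp at rps-9, 35 bp at rps-25, 2 bp at rps-8 and 44 bp at rps-2. The rps peaks rank above those of all genes (median 402 against 1448.5), and summit agreement at equal rank was not tested.

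Peak width had no consistent direction with signal. The commonest width in the thresholded list was 376 bp, held by 60.0% of its peaks. Among rps peaks the 5 weakest, at rps-7, rps-9, rps-25, rps-8 and rps-2, had it, and the other 24 were 117 to 362 bp wide. Among those 24 the stronger peaks were mostly the wider ones. The 6 at ranks 41 to 98 were 266 to 296 bp wide. Those at ranks 219 to 436 were 216 to 277 bp wide, apart from rps-18 at 362 bp, and those at ranks 504 to 1269 were 117 to 196 bp wide. The narrowest was that of rps-13.

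Both genes without a thresholded peak lie on chromosome V. rps-27, which encodes a zinc-binding protein of the body, had a weak region in its window. The pooled summit lay 649 bp upstream of the rps-27 start and 99 bp from the start of picd-1, a divergent neighbour that starts 748 bp from rps-27. The signal of the region was 35.1 in replicate 1 and 33.3 in replicate 2, and its pooled signal of 61.5 ranked 4253, under the weakest thresholded peak at 73.3. rps-16 starts 110 bp downstream of the end of fib-1 on the same strand. fib-1 encodes fibrillarin, the methyltransferase that modifies ribosomal RNA. The fib-1 peak, 79 bp upstream of the fib-1 start, had signal values of 298 and 279 in the replicates and rank 209. That summit lies 1761 bp upstream of the rps-16 start, outside the window. With a window of 2000 bp upstream it was given to rps-16 as well. Then 30 of 31 rps genes had a peak, against 19.3% of all protein-coding genes. Whether rps-16 is transcribed together with fib-1 was not tested.

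The other rps genes lie on chromosomes I (8 genes), II (1), III (9), IV (10) and V (3 in all, of which rps-30 had a peak). None lies on chromosome X, which holds 13.7% of protein-coding genes.

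Summits sat at a common distance from the start. The median was 288 bp upstream (quartiles 338 and 253 bp, from 545 at rps-18 to 116 at rps-22), and all 29 were upstream. For all genes with a peak the median was 226 bp upstream, with quartiles of 405.25 and 129 bp. Summits 200 to 400 bp upstream were found at 22 of 29 rps genes (75.9%), against 29.4% of all genes with a peak (910 of 3092). This band was not among the planned results and lies around the rps quartiles, so the contrast is a description. Large subunit genes had a median of 314 bp upstream, with quartiles of 381 and 248 bp that also lie in the band. Mitochondrial small subunit genes had a median of 139.5 bp upstream. In worms many annotated starts are sites where a leader is joined by trans-splicing, which follows an AG in the genome. An AG came directly before an annotated start at 31 of 31 rps genes, against 36.1% of all protein-coding genes (7210 of 19973). The distance is therefore from the annotated start, and the place where transcription begins was not measured.

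**Figure D4:**
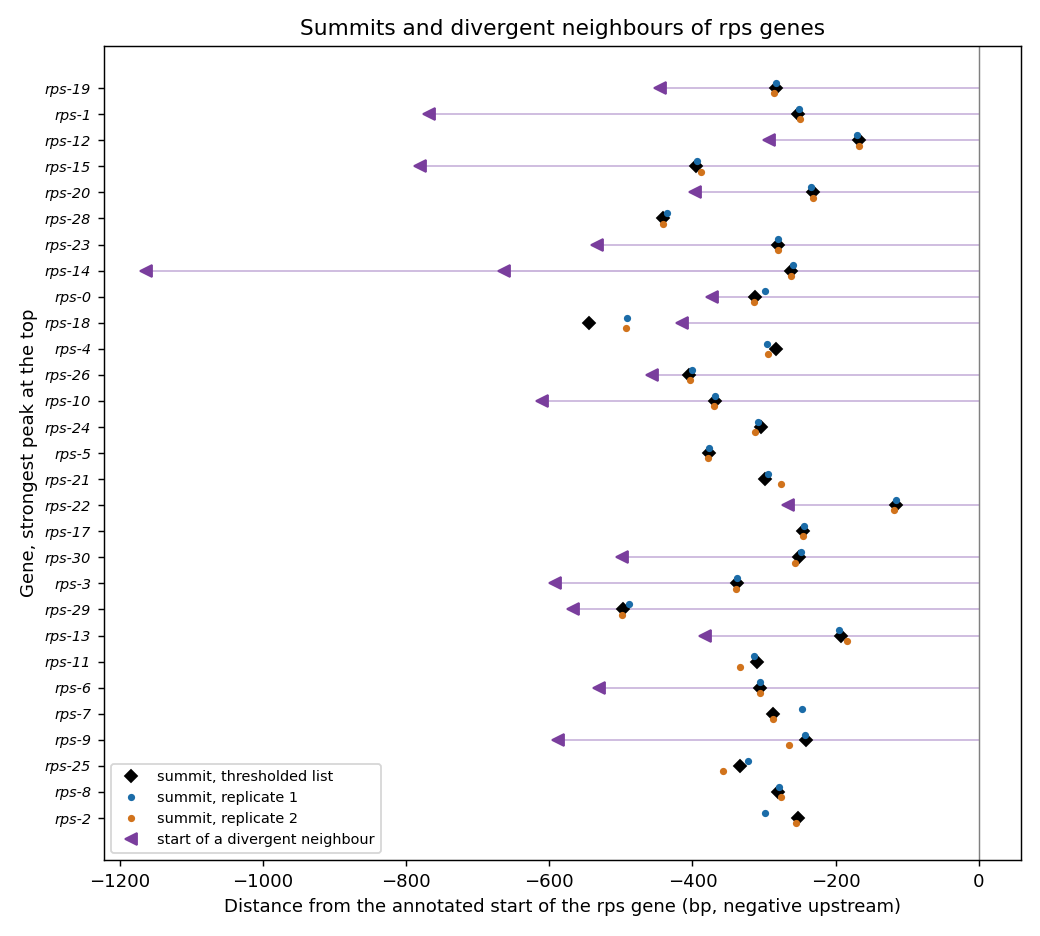
Distance in bp of summits from the annotated start of each of the 29 rps genes with a thresholded peak (0, grey line; negative is upstream), strongest peak at the top. Diamonds are thresholded summits, dots the replicates, and triangles the starts of divergent neighbours that share the peak. Most summits lie between 200 and 400 bp upstream, and in 18 of 19 divergent pairs the summit lies between the starts.

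At 19 of 29 rps genes (65.5%) the peak also lay in the promoter window of another protein-coding gene, against 52.5% of all genes with a peak (1623 of 3092). The share was 70.7% for rpl genes and 78.6% for mrps genes. Divergent neighbours, transcribed away from the rps gene on the other strand, accounted for 18 of the 19. A divergent start within 1000 bp upstream was present at 19 of 31 rps genes (61.3%), against 17.7% of all protein-coding genes. It was present at a like share of rpl genes, 59.6% (28 of 47), and at 37.9% of mrps genes. Of the 29 rps genes with a peak, 18 had such a neighbour, against 43.9% of all genes with a peak. All 18 rps genes with a peak and such a neighbour shared it, against 97.9% of all genes of that kind.

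Start-to-start distances in the 19 divergent pairs ran from 266 to 1164 bp with a median of 531 bp. The summit lay nearer the neighbour's start in 14 pairs and nearer the rps start in 5. The rps-14 summit is counted once with rpl-36 and once with ndab-2, nearer rps-14 each time. Among the 14, the distances to the rps and the neighbour's start were nearly equal at rps-13 (192 and 190 bp), rps-30 (251 and 248 bp) and rps-15 (395 and 386 bp). At these genes the replicates differed in which start was nearer. It cannot be told from the lists which gene of a pair a shared summit belongs to. The neighbours of the strongest rps peaks were hsr-9 at rps-19, ifet-1 at rps-1, ska-3 at rps-12, F36A2.9 at rps-15 and ekl-4 at rps-20. At rps-19 the summit lay 284 bp from the rps start and 161 bp from that of hsr-9, and at rps-1 it lay 253 bp from the rps start and 515 bp from that of ifet-1, which encodes a translational repressor. At rps-26 it lay 405 bp from the rps start and 52 bp from that of tmem-107. At rps-0 it lay 312 bp from the rps start and 61 bp from that of rbg-3.

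The pair of rps-18 and sec-61.A was the exception in position. sec-61.A encodes the channel of the endoplasmic reticulum through which new proteins pass. The thresholded summit lay 545 bp upstream of the rps-18 start, beyond the sec-61.A start and 130 bp into that gene. The replicate summits lay 492 and 493 bp upstream of rps-18, so they differed from the pooled one by more than from each other.

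At 3 rps genes the divergent neighbour was a gene of the large subunit. rps-30 and rpl-39 start 499 bp apart, with the summit 251 bp from the rps start and 248 bp from the rpl start. rps-10 and rpl-24.1 start 610 bp apart, with the summit 368 and 242 bp from them. rps-14 and rpl-36 start 663 bp apart, with the summit 262 and 401 bp from them, and ndab-2 also has this summit in its window. Further divergent neighbours were dpm-3 at rps-23, polh-1 at rps-22, sna-3 at rps-3, snt-2 at rps-29, nfx-1 at rps-13, usp-3 at rps-6 and lsm-1 at rps-9. On the same strand, Y41D4B.4 starts downstream of rps-28 and shares its peak, and C26F1.3 shares that of rps-30. The other 10 rps genes had a peak that no other window held, among them rps-4 at rank 295, rps-24, rps-5 and rps-21.

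A set of words was counted on either strand within 50 bp of each summit, as a description of letters. TGACGTG was in 0 of 29 rps windows, which allows a share of up to 10.3%, against 3.55% of other promoter peaks (84 of 2366). That limit lies above the share of the other peaks, so a lower share at rps genes was not detectable with this number of peaks. No TGACGTG was in the whole promoter window of any of 31 rps genes, which allows up to 9.68%, against 9.42% of all protein-coding genes. CCACGT was in 0 of 29 rps windows against 5.11% of other promoter peaks, and CACGTG was in 1, rps-29, against 4.69%. The palindromic cyclic AMP response element was in 0 of 29 against 1.56%, and a GA repeat of 8 letters in 0 of 29 against 5.2%. The core ACGT was in 9 of 29, against 29% of other promoter peaks.

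The commonest 7-letter word was GCGAGAC, in 10 of 29 rps windows against 5.87% of other promoter peaks. CGAGACC, which overlaps it, was in 9 against 5.96%, and GAGACCC in 8 against 5.37%. CTGCGTA was in 8 against 2.83%, and CAGCCAA in 8 against 1.27% of other promoter peaks and 1.08% of all genes' windows at the same distance. Other promoter peaks here include 38 peaks of rpl genes. In the order given above, the 5 words were in 15, 16, 14, 2 and 4 of these 38. The commonest word and those that overlap it were therefore not particular to rps genes.

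Among longer words, GGGTCTCGC, which contains GAGACCC and GCGAGAC as reverse complements, was in 7 rps windows, against 2.75% of other promoter peaks. These were rps-30, rps-29, rps-11, rps-6, rps-7, rps-25 and rps-8, at ranks 643 to 2484 with a median of 1269. Of 38 rpl peaks counted among the other promoter peaks, 11 had GGGTCTCGC. The shorter GCGAGAC was also at rps-4, rps-24 and rps-21, at ranks 295, 362 and 436, so the ranks depend on the length of the word. The windows with CAGCCAA were those of rps-19, rps-15, rps-20, rps-14, rps-0, rps-21, rps-22 and rps-3, at ranks 41 to 937 with a median of 241.5. Only rps-30 held GGGTCTCGC together with any of the other 3 words. Another 11 genes had none of the 4 words, at ranks 42 to 3111 with a median of 299, so the words do not order the peaks by themselves.

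The 14-letter word was in the summit windows of rps-20, rps-0, rps-22, rps-30 and rps-3, against 0.0845% of other promoter peaks (2 of 2366, both at rpl genes). Its centre lay 19.5 to 35.5 bp downstream of the summit, on the strand of the rps gene in all 5. The nuclear genome holds 20 copies of it. Of them, 9 lay within a summit window, 8 lay in the promoter window of an rps or rpl gene, and 7 were in both. The 17-letter word was in the summit windows of rps-23, rps-10 and rps-13, against 0.38% of other promoter peaks (9 of 2366). The genome holds 15 copies, all in promoter windows of protein-coding genes, 12 of them within a summit window. Ribosomal protein genes held 8 of the 15 in their promoter windows, and 1 of these, upstream of rps-18, lay outside the summit window. How many copies of a word of this length chance gives was not computed.

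The G+C content of the summit windows was 50.5% ± 6.04 at rps summits (SD, n = 29 peaks) and 46.9% ± 7.36 at other promoter peaks (SD, n = 2366). It ran from 29.7% at rps-18 to 60.4% at rps-6. Windows at the median rps distance upstream of all protein-coding genes averaged 34.4%. The difference in mean was not tested, nor was the part of G+C content in the ranks.

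Of a list of 25 partners of the small subunit, 22 matched the annotation and 16 of these had a thresholded peak (72.7%, 51.8 to 86.8%), against 15.5% of all genes. Their median rank was 1452, close to that of all genes with a peak. The strongest were eif-3.C at rank 110 and eif-3.B at rank 196, both subunits of the initiation factor that binds the small subunit. fib-1 at rank 209 and nol-58 at rank 286, a partner of fibrillarin in the box C/D particles that guide ribosomal RNA methylation, came next. ubl-1, which encodes a small subunit protein fused to a ubiquitin-like part and is not named rps, had rank 595 with its summit 219 bp upstream. rack-1, a scaffold protein bound to the head of the subunit, had rank 1483. eif-2alpha, a subunit of the factor that brings the initiator transfer RNA, and rsks-1, the kinase that phosphorylates the rps-6 protein, had no thresholded peak.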

How the data were processed

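ChIP-seq peak lists of 2 replicates of 1 group were used. Per the deposited file lists, the authors made relaxed lists for each replicate and for the pooled replicates, and a thresholded list by the irreproducible discovery rate, on ce11 and ce10. Only ce11 was used. Neither aligner nor peak caller is given in the sources used here. Deposited signal values ranked regions within a list. The deposited -log10 q-value is shared at its maximum by 3094 thresholded peaks and was not used. Summits came from the deposited offset (bp) within each region. No read totals are given, so depth is unknown. Starts came from Ensembl release 115 and sequence from RefSeq (WBcel235). Python 3.11.15, pandas 2.3.3, numpy 2.4.6, scipy 1.17.1 and matplotlib 3.10.9 were used. Summit assignment was tested on simulated data. Limits for counts of 0 use 3 counts. No test of significance was made. The members and lists were chosen with earlier results of these data known. Named were any rps gene, genes that share its peak, the 4 strongest partners and up to 2 without a peak, xbp-1 and hsp-3; ubl-1, rack-1 and picd-1 were added after their values were seen. Alternatives changed the window, the start used, the overlap rule, the summit window, the list and the replicates.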

Additional observations from a re-analysis of the deposited data

How the results depend on the processing

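No paired analysis was possible because both replicates belong to 1 group and no conditions were compared. Of 47 values under alternatives, 34 stayed within a tolerance and 13 moved. The tolerance was the 95% interval for shares, 1.5 times for the count of shared peaks, and for medians and G+C 1 SD of the values that leave out each replicate, which is narrow. Shared peaks numbered 16 with 500 bp upstream, 26 with 2000 bp and 21 with any overlap, against 19. The share over all genes was not counted at these settings, so the counts say nothing particular to rps genes. With the nearest start only, 48.4% of rps genes had a peak, the median rank was 504 and 0 peaks were shared, as that setting gives each summit to a gene once. With 2000 bp upstream the median rank was 382, the median position -293 bp and the relaxed share 100%. The relaxed share over all genes was not counted at that setting. Among the 1820 strongest peaks the median rank was 349.5 and the position -293 bp. G+C was 55.8% within 25 bp and 42.3% within 100 bp of the summit. Leaving out a replicate gave shares of 90.3 to 93.5% of rps genes, against 15.2 to 15.4% of all genes. Median ranks were then 383.5 to 408, positions -295 to -288 bp and G+C 50.46 to 50.7%. TGACGTG was at 0 rps peaks in every window tried, including whole peak regions, a setting chosen after seeing the data.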
